A study of Mus musculus with 6 samples.

Results

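Peg10 and a group of other imprinted genes were examined in illuminated and unlit 661W cells. They were found by symbol: of the 10 named genes (Peg10, Sgce, Plagl1, Cdkn1c, Nnat, Mest, Grb10, Peg3, Dlk1 and H19), 9 matched a row among the 24879 rows of the expression table, and H19 is not analysed here. Peg10 was chosen by its FPKM values in these same libraries, as one of the 10 largest decreases in light, and the others were added as imprinted genes with their values already known. Their changes are therefore described without a test. Sequencing libraries of messenger RNA were made from 661W, an immortalised mouse line that was derived from cone photoreceptors and is labelled as photosensitive cells. For the Light group (3 libraries) cells were lit for 24 h at 2000 ± 100 lux by a fluorescent lamp of cold white colour, and for the Dark group (3 libraries) they were kept without light equally long. Both groups are the same single cell line in the same serum-containing medium. Nothing in the labels says that the libraries of a group came from separate cultures, so their spread may be technical.

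In an imprinted gene, DNA methylation laid down in the egg or the sperm leaves the copy from only one parent active. Such genes lie in clusters, each governed by a methylated control region, and many act on fetal and placental growth, the cell cycle or brain function. Peg10, Sgce, Plagl1, Mest, Peg3, Dlk1 and Nnat are expressed from the paternal copy, and Cdkn1c and H19 from the maternal copy. Grb10 is maternal in most mouse tissues and paternal in neurons. Values here are sums over both copies, so allele-specific expression was not measured.

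Expression is given as deposited FPKM, in which fragments are divided by the length of the transcript and by the size of the library. Read totals were not used here and the depth is unknown, so precision rests on 3 libraries per group. FPKM summed to 464997.8 ± 6164.0 per Light library and 420934.2 ± 12025.0 per Dark library (SD, n = 3 each). On the first principal component of the 11068 genes that averaged 1 FPKM or more, which held 78.5% of the variance, Light 2 (31.7) and Dark 1 (-36.5) stood at opposite ends, each farther out than its own group. Of 15 cone markers none reached a mean of 1 FPKM, and Opn1mw, Arr3, Otx2, Rcvrn, Pde6c and Cngb3 were listed at 0 in all 6 libraries. The cone markers summed to 1.37 to 1.79 FPKM in Light and 1.52 to 2.51 FPKM in Dark, and 7 rod markers to 0.188 to 0.278 FPKM in Light and 0.131 to 0.209 FPKM in Dark. Of 6 retinal ganglion and neural precursor markers 3 passed the filter. Nes had 44.3 FPKM in Light and 51.4 FPKM in Dark (limma, adjusted p = 0.0282). Pax6 had 8.03 FPKM in Light and 11.4 FPKM in Dark (limma, adjusted p = 0.0398). Both were thus called lower, and both calls were lost without Light 2, Light 3 or Dark 3. Tubb3 had 10.5 FPKM in Light and 11.0 FPKM in Dark and was not called (limma, adjusted p = 0.724). Rbpms had 0.322 FPKM in Light and 0.330 FPKM in Dark, and Thy1 0.0187 FPKM in Light and 0.0309 FPKM in Dark. Pou4f1 was listed at 0 in all 6 libraries. Of 6 Müller glia markers 3 passed the filter. Slc1a3 and Glul fell, against 16.4% of all genes tested, and Sox9 was not called (log2 change -0.16, limma, adjusted p = 0.212). Below the filter, Gfap had 0.125 FPKM in Light and 0.0243 FPKM in Dark. Rlbp1 had 0.107 FPKM in Light and 0.0939 FPKM in Dark, and Aqp4 0.00644 FPKM in Light and 0 in Dark. Mitf was the single pigment epithelium marker past the filter, with no call.

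Peg10 was the most abundant of the 9 genes in the dark and over all libraries, while in the light Sgce had a slightly higher mean, and it had the widest gap between the groups. It encodes gag-like and pol-like proteins that descend from a retrotransposon of the Ty3 family, joined by a ribosomal frameshift, and is needed for the mouse placenta. Peg10 (ENSMUSG00000092035) spans chromosome 6 from 4747306 to 4760517 on the plus strand of mm10. It stood at 10.7, 6.56 and 9.10 FPKM in Light 1, 2 and 3, against 35.6, 31.4 and 33.8 FPKM in Dark 1, 2 and 3. Every Light library was thus far below every Dark library, with a wide empty interval between the groups. The means were 8.80 ± 2.11 FPKM in Light and 33.6 ± 2.08 FPKM in Dark (SD, n = 3 each), so that Light stood at 0.262 of the Dark mean. The difference of log2(FPKM + 1), a scale that shrinks differences of low genes, was -1.84 ± 0.19 (SE from the libraries). Since Peg10 was chosen for this decrease, the values are a description. Among the 11068 genes past the filter, 0.0632% had a larger decrease, and Peg10 was number 8 in that order. Over 13 alternative settings the difference ran from -1.98 to -1.61, and it was -1.63 without Light 2 and Dark 1.

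Fibroblast markers moved with Peg10. The 7 genes of this list summed to 368 to 399 FPKM in Light and 756 to 874 FPKM in Dark, and all 5 that passed the filter fell, against 16.4% of all genes tested called lower (limma, adjusted p under 0.05). Their median log2 change was -0.99, beside -0.01 over all genes tested. The part of these markers in the Peg10 values was not tested. Dcn and Lum, defining fibroblast genes, did not pass the filter: Dcn averaged 0.643 FPKM in Light and 0.807 FPKM in Dark, and Lum 0.0854 FPKM in Light and 0.0881 FPKM in Dark.

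Sgce, which shares the control region of Peg10 and is read in the opposite direction, did not separate the groups. It encodes epsilon-sarcoglycan, a membrane protein whose loss causes myoclonus-dystonia in people. Sgce (ENSMUSG00000004631) spans chromosome 6 from 4674350 to 4747207 on the minus strand, and its annotated start lies 99 bases from that of Peg10. It stood at 9.99, 10.4 and 9.52 FPKM in Light and at 10.9, 9.53 and 9.73 FPKM in Dark. The groups overlapped fully, with means of 9.98 ± 0.442 FPKM in Light and 10.1 ± 0.752 FPKM in Dark. The log2 difference was -0.01 ± 0.07 (SE). Its direction depended on the scaling: it was -0.14 with equal FPKM totals, 0.08 with quantile normalization and 0.40 with a trend on transcript length and GC content removed. The longest annotated Sgce transcript has 38.4% GC, and only 2.39% of the tested genes have less.

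The ratio of Peg10 to Sgce within a library, which scaling between libraries does not touch, was 1.08, 0.630 and 0.955 in Light and 3.26, 3.30 and 3.48 in Dark. In the dark Peg10 was thus the more abundant of the neighbours by a steady margin, and in the light it stood slightly above Sgce in Light 1 and below it in Light 2 and Light 3. The mean ratio was 0.887 ± 0.230 in Light and 3.34 ± 0.119 in Dark (SD, n = 3 each). This ratio shows unequal change of the neighbours, and it uses the Peg10 values that led to its choice.

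**Figure D1:**
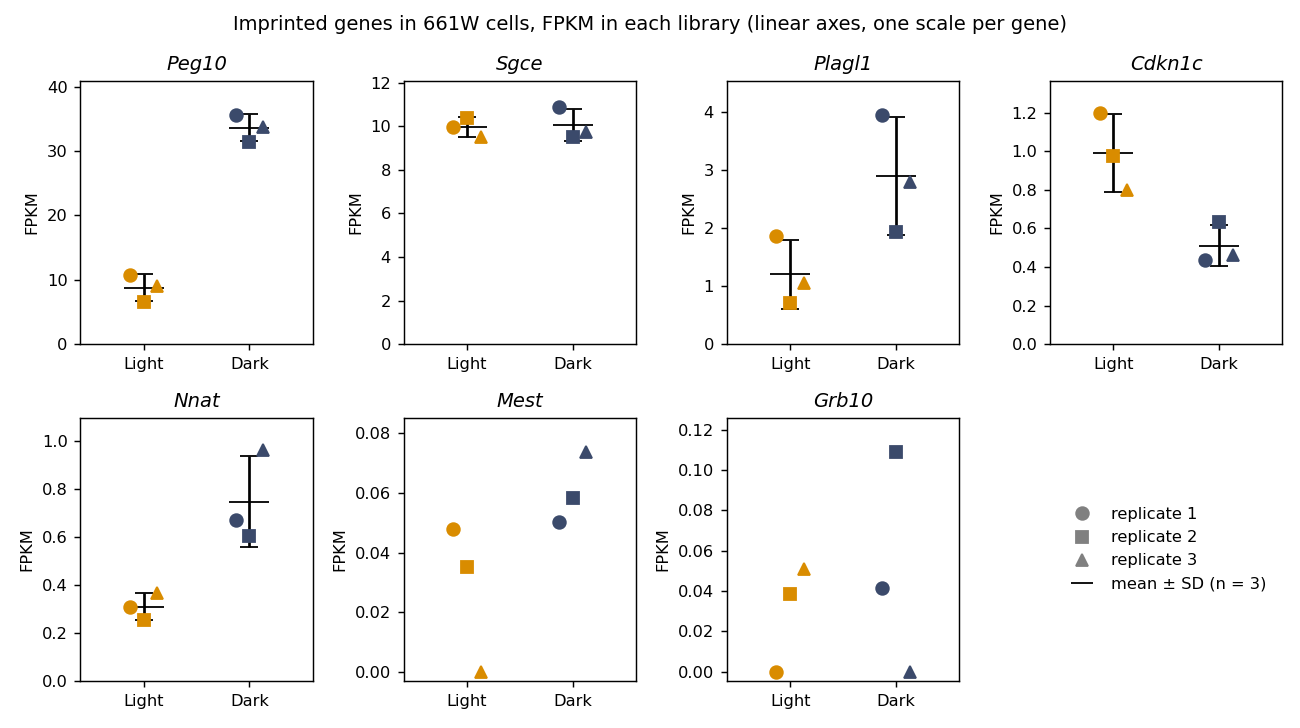
FPKM of the imprinted genes in each library, on a linear axis with its own scale in each panel, with Light left of Dark. Points are libraries, marked by replicate number, and bars are mean ± SD (n = 3), left out for Mest and Grb10, which hold values listed at 0. Peg10 Light libraries lie between 6.56 and 10.7 FPKM, below all Dark libraries, while the Sgce points of both groups overlap.

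Plagl1 was the other member past the filter. It encodes a zinc finger transcription factor, also called ZAC1, that halts the cell cycle and controls other imprinted genes. Plagl1 (ENSMUSG00000019817) spans chromosome 10 from 13060504 to 13131694 on the plus strand. It stood at 1.86, 0.703 and 1.06 FPKM in Light and at 3.96, 1.94 and 2.80 FPKM in Dark. Light lay wholly below Dark, but only just, since Light 1 came close to Dark 2. The means were 1.21 ± 0.591 FPKM in Light and 2.90 ± 1.01 FPKM in Dark, a log2 difference of -0.82 ± 0.31 (SE). A larger decrease was seen in 3.40% of the genes tested. The difference was -0.46 without Light 2 and Dark 1, and -1.24 with a pseudocount of 0.1.

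Cdkn1c was the sole member that stood wholly higher in the light, at a low level. It encodes a cyclin-dependent kinase inhibitor that restrains growth, and lies in the large imprinted cluster at the end of mouse chromosome 7 (ENSMUSG00000037664, 143458339 to 143461050, minus strand). It stood at 1.20, 0.973 and 0.799 FPKM in Light and at 0.437, 0.632 and 0.464 FPKM in Dark. The groups did not overlap, and the Light mean of 0.989 ± 0.200 FPKM was 1.94 times the Dark mean of 0.511 ± 0.106 FPKM. The log2 difference was 0.39 ± 0.10 (SE), and 0.83 with a pseudocount of 0.1.

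Nnat encodes neuronatin, a small membrane protein of the endoplasmic reticulum that is abundant in developing neurons. Nnat (ENSMUSG00000067786) spans chromosome 2 from 157560078 to 157562522 on the plus strand, inside the span of Blcap on the minus strand. The strand setting is not given in the sources used here, so reads of the overlapping genes may not be told apart. Nnat stood at 0.307, 0.254 and 0.368 FPKM in Light and at 0.672, 0.605 and 0.962 FPKM in Dark. All Light values lay below all Dark values, with means of 0.309 ± 0.0572 FPKM in Light and 0.746 ± 0.189 FPKM in Dark. The log2 difference was -0.41 ± 0.10 (SE), and -1.03 with a pseudocount of 0.1. Light stood at 0.415 of Dark.

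The remaining members were at or near 0. Mest, which encodes a protein of the alpha/beta hydrolase fold (ENSMUSG00000051855, chromosome 6, 30723547 to 30748465, plus strand), had 0.0480 and 0.0353 FPKM in Light 1 and 2 and was listed at 0 in Light 3. Its Dark values were 0.0503, 0.0583 and 0.0738 FPKM. The groups did not overlap, but all values were so low that the log2 difference was -0.05 ± 0.02 (SE). This difference was 0.01 with median centring and -0.35 with a pseudocount of 0.1. Grb10, an adaptor that binds the insulin and IGF1 receptors and dampens their signal (ENSMUSG00000020176, chromosome 11, 11930508 to 12038683, minus strand), had 0, 0.0384 and 0.0511 FPKM in Light and 0.0416, 0.109 and 0 FPKM in Dark. Its groups overlapped. Peg3, a zinc finger gene on chromosome 7 (6703892 to 6730431, minus strand), and Dlk1, a membrane protein related to the Notch ligands, on chromosome 12 (109452823 to 109463336, plus strand), were listed at 0 in all 6 libraries.

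Of the 9 members, 3 passed the filter of a mean of at least 1 FPKM. Light lay wholly below Dark for 4 (Peg10, Plagl1, Nnat and Mest) and wholly above it for 1 (Cdkn1c), and the groups overlapped or were listed at 0 throughout for the other 4. Over the 19300 rows above 0 in any library, Light lay wholly below Dark in 17.9% and wholly above it in 18.2%. Among the 11068 genes past the filter these shares were 24.4% and 28.2%. The members were chosen with these values known, so nothing is read from their count. By mean FPKM over all libraries the order was Peg10 (21.2), Sgce (10.0), Plagl1 (2.05), Cdkn1c (0.750), Nnat (0.528), Mest (0.0443) and Grb10 (0.0401), and the median gave the same order. The neighbours in this order that overlap differed by group: Peg10 and Sgce overlapped in Light and were well apart in Dark. Cdkn1c stood above Nnat in every Light library, while in Dark the Nnat range of 0.605 to 0.962 FPKM overlapped that of Cdkn1c. In Light the Plagl1 and Cdkn1c values also overlapped, and Mest and Grb10 overlapped in both groups. Peg10 had a higher mean than 84.2% of all rows and Sgce than 74.1%.

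Imprinted genes are marked by methylation at CpG dinucleotides. The promoters of Plagl1 and Nnat are shown because their transcripts stood wholly lower in the light, and 1 of Grb10 because it holds the most CpG of the members' entries. Mest also stood wholly lower, but near 0, and its entries are not shown. Peg10, Sgce and Cdkn1c had no entry. They come from RefSeq on GRCm38.p6, cover 250 bases before to 50 bases after an annotated start, and are written 5′ to 3′ with each CpG in capitals. Matching by symbol gave 9 entries for 6 members. The Plagl1 entry (chr10:13090582-13090881, plus strand) starts inside the gene's span, the Nnat entry (chr2:157559828-157560127, plus strand) ends just inside that gene, and the Grb10 entry (chr11:12037371-12037670, minus strand) is the one nearer the gene's outer end.
Plagl1: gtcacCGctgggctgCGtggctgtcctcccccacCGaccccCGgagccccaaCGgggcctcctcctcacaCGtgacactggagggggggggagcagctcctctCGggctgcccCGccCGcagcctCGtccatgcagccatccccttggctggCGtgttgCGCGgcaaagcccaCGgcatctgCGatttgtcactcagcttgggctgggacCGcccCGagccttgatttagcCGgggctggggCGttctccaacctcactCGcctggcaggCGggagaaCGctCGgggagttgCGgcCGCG
Nnat: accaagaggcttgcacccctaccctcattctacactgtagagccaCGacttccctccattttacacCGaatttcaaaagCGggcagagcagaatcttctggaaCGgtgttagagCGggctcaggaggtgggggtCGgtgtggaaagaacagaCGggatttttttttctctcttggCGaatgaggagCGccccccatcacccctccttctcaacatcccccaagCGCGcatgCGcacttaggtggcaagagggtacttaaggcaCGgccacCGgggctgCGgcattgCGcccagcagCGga
Grb10: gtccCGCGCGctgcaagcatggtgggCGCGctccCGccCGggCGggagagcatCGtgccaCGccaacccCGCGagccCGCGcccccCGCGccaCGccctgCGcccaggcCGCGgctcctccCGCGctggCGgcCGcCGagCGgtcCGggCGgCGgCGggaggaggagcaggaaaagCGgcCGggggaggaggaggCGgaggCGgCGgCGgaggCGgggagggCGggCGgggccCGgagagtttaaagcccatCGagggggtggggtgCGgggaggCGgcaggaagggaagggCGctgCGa
The Plagl1 promoter held 26 CpG, more than 83.1% of the 32851 mouse promoters of this length, at 70.7% GC. The Nnat promoter held 17 CpG at 57.3% GC, more than 68.6% of promoters, and the Grb10 entry shown 45 CpG at 80.0% GC, more than 98.1%. The other Grb10 entry held 9 CpG at 52.3% GC, more than 54.2% of promoters, the 3 Mest entries 8, 17 and 17, that of Peg3 13 and that of Dlk1 9. The median over all promoters was 7 CpG and 52.7% GC. Every entry thus lay above the median count, some only just. Methylation was not measured. The letters GGGGCCCC, its own reverse complement and a sequence that the Plagl1 protein binds, were found in 1 of the 9 entries, that of Peg3, and in 1.08% of all promoters. TATAAA on either strand was found in 0 of the 9 entries and in 13.6% of all promoters.

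Other genes listed as imprinted showed calls in both directions. Whether each of them is imprinted in these cells was not tested, since the values are sums over both copies. Of 61 further symbols 53 had a row, 19 passed the filter, and of these 3 rose and 3 fell (limma on log2(FPKM + 1), adjusted p under 0.05). That is 31.6% called, beside 35.6% of all 11068 genes tested (19.2% higher, 16.4% lower), and the median log2 change was -0.04 beside -0.01. Few genes listed as paternally expressed passed the filter. Of those with a row, 0 of the 6 that share a domain with a member passed, and 3 of 15 from other domains. Rtl1, at 0 throughout, is among the 6. Of those listed as maternally expressed, 9 of 20 and 7 of 12 passed. The counts leave out the members, of which Peg10, Sgce and Plagl1, all paternally expressed, passed. The 3 most abundant of the 19 were not called. Gnas, the stimulatory G protein alpha subunit, had 375 ± 8.54 FPKM in Light and 385 ± 33.5 FPKM in Dark (adjusted p = 0.725). Cd81, a tetraspanin, averaged 129 FPKM in each group (adjusted p = 0.981), and Nap1l4, a histone chaperone, 76.8 FPKM in Light and 80.1 FPKM in Dark (adjusted p = 0.481). With the length and GC trend removed all 3 were called lower (Gnas -0.17, adjusted p = 0.0195, Cd81 -0.25, adjusted p = 0.00974, and Nap1l4 -0.23, adjusted p = 0.0158). With quantile normalization Gnas (-0.30, adjusted p = 0.0110) and Nap1l4 (-0.20, adjusted p = 0.0366) were called lower, and with equal FPKM totals Nap1l4 (adjusted p = 0.0342).

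Herc3, a HECT-domain ubiquitin ligase gene whose span holds the imprinted Nap1l5, fell the most of these genes. It stood at 2.54, 2.55 and 2.50 FPKM in Light and at 7.42, 6.45 and 7.43 FPKM in Dark, and the groups were well apart. The log2 change was -1.20 ± 0.09 (SE from limma, adjusted p = 0.000340), and it was called in all 15 settings in which it was tested. Nap1l5 itself was at 0.00664 FPKM in Light and 0.119 FPKM in Dark, below the filter. Ube3a, the ubiquitin ligase of Angelman syndrome, which is imprinted in neurons, fell to 3.24 ± 0.864 FPKM in Light, against 7.41 ± 2.79 FPKM in Dark (log2 change -0.96 ± 0.25, adjusted p = 0.0260). Casd1, a sialic acid O-acetyltransferase gene in the Peg10 domain, fell to 2.29 ± 0.440 FPKM in Light, against 4.18 ± 1.09 FPKM in Dark (log2 change -0.65 ± 0.17, adjusted p = 0.0284).

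The 3 increases were small. Commd1, a copper and protein trafficking factor, rose to 12.7 ± 0.308 FPKM in Light, against 9.90 ± 1.27 FPKM in Dark (log2 change 0.34 ± 0.09, adjusted p = 0.0315). Trappc9, a vesicle tethering subunit, rose to 16.9 ± 0.358 FPKM in Light, against 13.7 ± 1.71 FPKM in Dark (0.29 ± 0.09, adjusted p = 0.0465), and Blcap, the host of Nnat, to 17.3 ± 0.606 FPKM in Light, against 14.0 ± 0.593 FPKM in Dark (0.29 ± 0.07, adjusted p = 0.0171). With equal FPKM totals, which moved the median of all genes to -0.13, all 3 increases lost their call (adjusted p = 0.0648 to 0.154). With the length and GC trend removed Blcap was at 0.06 (adjusted p = 0.424) and Ube3a at -0.36 (adjusted p = 0.00995), and with quantile normalization Trappc9 was not called (0.0614). Of the 6 calls only that of Herc3 remained without Light 2 (the others 0.0711 to 0.133), without Light 3 (0.0771 to 0.139) and without Dark 3 (0.0676 to 0.118). Without Light 1 or Dark 1, Trappc9 (0.0760 and 0.102) and Commd1 (0.0625 and 0.0736) lost theirs.

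Among low genes that were not tested, Slc22a18, a maternally expressed neighbour of Cdkn1c, stood at 0.433, 0.293 and 0.650 FPKM in Light and at 0.132, 0.109 and 0.132 FPKM in Dark. Slc38a4, a paternally expressed amino acid transporter gene, stood at 0.0827, 0.0587 and 0.0702 FPKM in Light and at 0.549, 0.255 and 0.325 FPKM in Dark. In both, the groups did not overlap, Light being higher for Slc22a18 and lower for Slc38a4. These were named after their values were seen.

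**Figure D2:**
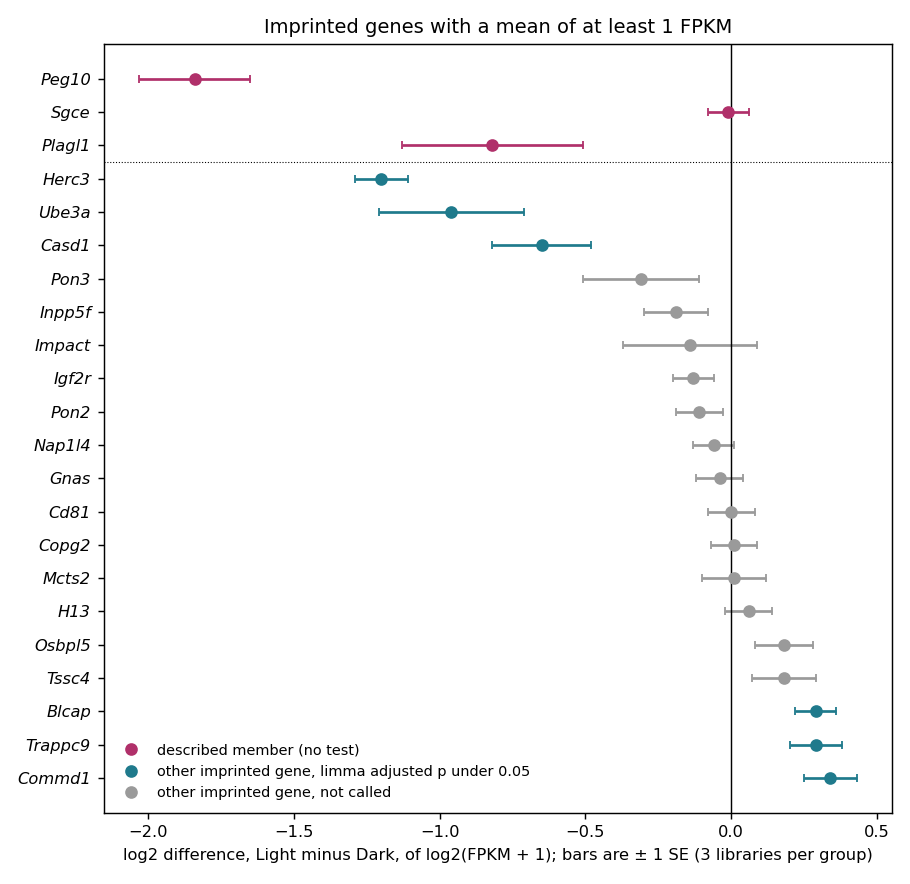
Log2 difference, Light minus Dark, of log2(FPKM + 1) for the 3 members and the 19 other imprinted genes past the filter, with bars of ± 1 SE and colours for untested members, called genes and genes with no call. Peg10 lies at -1.84, Herc3 at -1.20 and Sgce at -0.01, and the value farthest above 0 is that of Commd1, 0.34.

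Genes whose annotated start lies within 250 kb of a member's start were called in both directions. Across all windows, members left out, 18 of 40 rows passed the filter, of which 7 rose and 4 fell, beside 19.2% higher and 16.4% lower of all genes tested, with a median log2 change of 0.13 beside -0.01. In the Peg10 window both tested neighbours other than Sgce fell: Casd1, and Col1a2, a chain of type I collagen that starts 242.5 kb from Peg10. Col1a2 stood at 5.97, 6.21 and 7.46 FPKM in Light and at 23.2, 22.3 and 20.8 FPKM in Dark, a log2 change of -1.62 ± 0.09 (adjusted p = 0.000132), close in size to the difference of Peg10. Col1a2 is also 1 of the 5 fibroblast markers that fell, beside Col3a1 (-1.39) and Col1a1 (-0.99), and the part of that group in its change was not tested. Sgce, between them and Peg10, overlapped between the groups. Casd1 lost its call without Light 2, Light 3 or Dark 3, as given above.

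Around Nnat all 4 tested genes rose, beside 19.2% called higher of all genes tested. Manbal rose to 35.7 FPKM in Light, against 24.2 FPKM in Dark (log2 change 0.54 ± 0.09, adjusted p = 0.00536), the spliceosome-associated Ctnnbl1 to 26.1 FPKM in Light, against 20.3 FPKM in Dark (0.35 ± 0.10, adjusted p = 0.0358), and the tyrosine kinase gene Src to 19.2 FPKM in Light, against 15.4 FPKM in Dark (0.30 ± 0.09, adjusted p = 0.0378). Nnat itself stood lower in the light. Manbal kept its call in every setting, though at 0.19 with the length and GC trend removed (adjusted p = 0.0307), whereas Ctnnbl1 and Src lost theirs with equal FPKM totals (adjusted p = 0.0923 and 0.118) and Blcap too (0.0648). Without Light 2, Light 3, Dark 1 or Dark 3, Ctnnbl1 had adjusted p = 0.0758 to 0.127 and Src 0.0900 to 0.132. With the trend removed Ctnnbl1 was at 0.12 (adjusted p = 0.147), Src at 0.17 (adjusted p = 0.0274) and Blcap at 0.06 (adjusted p = 0.424), and quantile normalization ended the calls of Ctnnbl1 (0.0588) and Src (0.0556).

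Around Cdkn1c 3 of 4 tested genes rose, beside 19.2% called higher of all genes tested. Cdkn1c itself, which was not tested, stood higher. Cars, the cysteinyl-tRNA synthetase gene, rose to 60.7 ± 1.36 FPKM in Light, against 36.1 ± 3.43 FPKM in Dark (log2 change 0.74 ± 0.08, adjusted p = 0.00114). Tnfrsf23 (0.59 ± 0.07, adjusted p = 0.00165) and Tnfrsf22 (0.47 ± 0.09, adjusted p = 0.0100), decoy receptor genes of the TNF family, rose too. Their values are uncertain, since they are closely related copies whose reads could be split between them, and Tnfrsf22 had adjusted p = 0.0508 without Light 3. Nap1l4 was the gene with no call.

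Around Plagl1 1 of 4 tested genes was called, beside 35.6% of all genes tested. Utrn, the utrophin gene, fell to 4.76 ± 0.572 FPKM in Light, against 7.51 ± 1.08 FPKM in Dark (log2 change -0.56 ± 0.12, adjusted p = 0.0157), a call lost without Light 2 (0.0617) or Dark 3 (0.0618). With the length and GC trend removed Utrn was at -0.19 (adjusted p = 0.0862). Stx11 (0.25, adjusted p = 0.101), Sf3b5 (0.27, adjusted p = 0.0717) and Ltv1 (-0.11, adjusted p = 0.504) were not called, but without Dark 2 Sf3b5 (0.0112) and Ltv1 (0.0493) were, and Stx11 was with quantile normalization (0.0335) or the trend removed (0.0458). In the Grb10 window Fignl1, an ATPase of DNA repair, fell by 0.35 on the log2 scale (adjusted p = 0.0408), and the call was lost in 7 of 16 settings, among them each without Light 1, Light 2, Light 3, Dark 1 or Dark 3 (0.0593 to 0.140). In the Mest window Cep41 (-0.28, adjusted p = 0.122), Tmem209 (-0.18, adjusted p = 0.170) and Copg2 (0.01, adjusted p = 0.938) were not called. No gene near Peg3 or Dlk1 passed the filter.

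**Figure D3:**
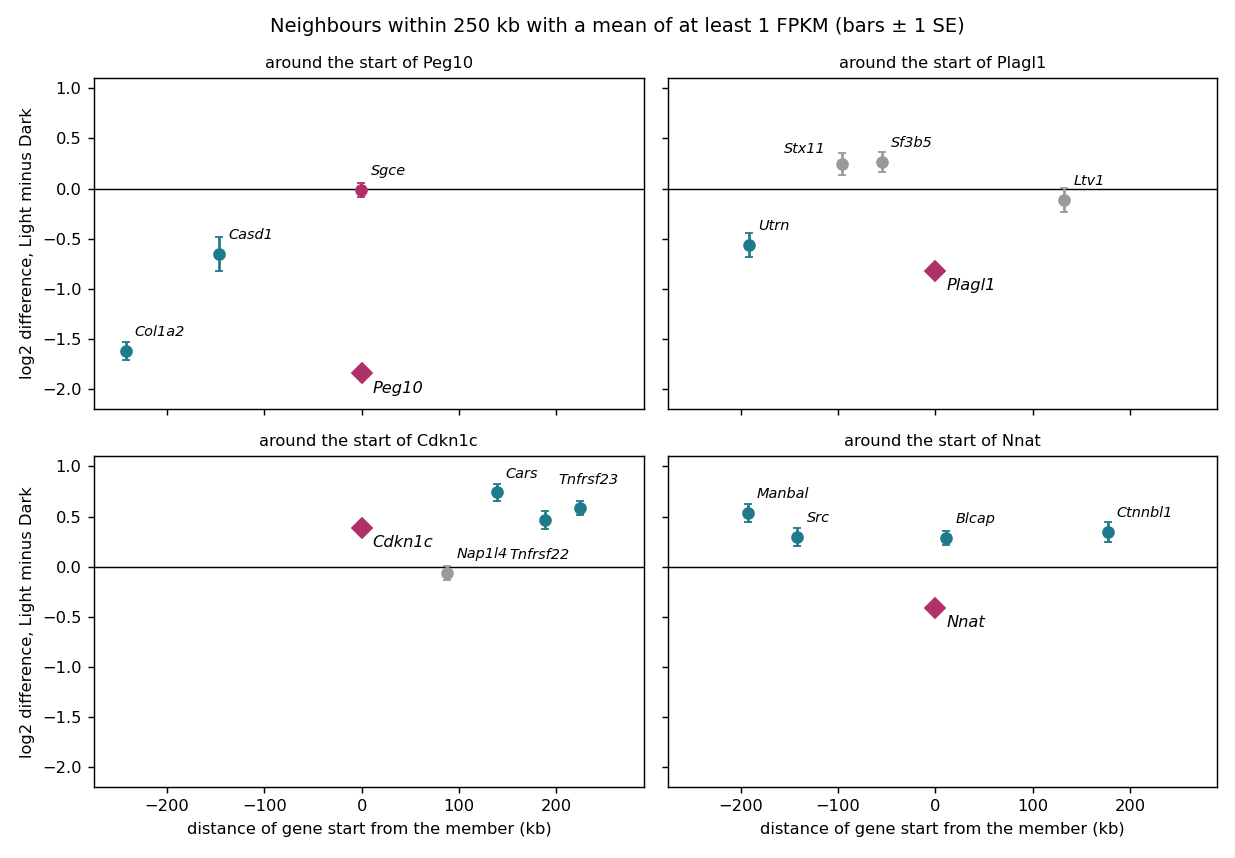
Log2 change, Light minus Dark, of genes past the filter near Peg10, Plagl1, Cdkn1c and Nnat, against the distance of their annotated start from that of the named gene in kb. Bars are ± 1 SE, blue-green points were called, grey points were not, and red points are the untested imprinted genes described above. In the Peg10 window Col1a2 lies at -1.62 and Casd1 at -0.65, and all 4 tested genes around Nnat lie above 0.

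The genes most like Peg10 across the 6 libraries, by Pearson correlation of log2(FPKM + 1) among 8136 genes that averaged 5 FPKM or more and have a symbol that is no clone or predicted-gene name, were Sec16b (0.9991), Prrc2b (0.9988), Clasp1 (0.9986), Srgap3 (0.9985) and Cxcl12 (0.9983). Sec16b serves export from the endoplasmic reticulum, Clasp1 steadies microtubule ends, and Cxcl12 is a chemokine. All 6 points come from the same libraries, the gap between the groups included, and 202 genes reached 0.98. All 5 were picked by their likeness to a gene chosen for its gap between the groups, so their own gaps are described with no test. Cxcl12 had 217 ± 18.9 FPKM in Light and 391 ± 6.27 FPKM in Dark, the widest gap of the 5. Srgap3 had 4.39 FPKM in Light and 5.67 FPKM in Dark, the narrowest on log2(FPKM + 1). By ratio of means Prrc2b had a narrower gap, with Light at 0.780 of Dark, against 0.774 for Srgap3. The log2 differences of Prrc2b, Clasp1 and Srgap3 were -0.35, -0.38 and -0.31. With the length and GC trend removed they were -0.12, -0.07 and -0.08, and quantile normalization put Srgap3 at -0.14. Over all settings Sec16b ran from -0.70 to -0.44 and Cxcl12 from -1.06 to -0.77.

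Genes that keep imprints or methylate DNA were listed together with Polycomb subunits and Tet genes, which oxidise methylcytosine. Of this mixed list 14 were tested, of which 5 fell and 0 rose. That is 35.7% called, all lower, beside 35.6% of all genes tested (19.2% higher and 16.4% lower). The median log2 change was -0.19 beside -0.01. Below the filter Dnmt3l, a cofactor of de novo methylation, stood wholly higher, with 0.708 FPKM in Light and 0.105 FPKM in Dark, and Tet1 and Tet2 wholly lower, Tet2 with 0.436 FPKM in Light and 1.24 FPKM in Dark. Suz12, a core subunit of a Polycomb repressive complex, fell to 13.4 ± 4.39 FPKM in Light, against 29.4 ± 12.3 FPKM in Dark (log2 change -1.04 ± 0.32, adjusted p = 0.0419). Zfp445, a KRAB zinc finger protein that guards imprints, fell by 0.76 (adjusted p = 0.0487), and Smchd1, a chromosomal silencing protein, by 0.74 (adjusted p = 0.0258). Tet3, which oxidises methylcytosine, fell by 0.47 (adjusted p = 0.0125). The insulator protein gene Ctcf fell to 25.9 FPKM in Light, against 30.5 FPKM in Dark (adjusted p = 0.0329). Dnmt1, the maintenance methyltransferase, had 76.9 FPKM in Light and 79.0 FPKM in Dark (adjusted p = 0.643), and its partner Uhrf1 (-0.13, adjusted p = 0.179), Trim28 (0.06, adjusted p = 0.584) and Zfp57 (0.19, adjusted p = 0.257) were not called either. The count of lower calls was 0 without Light 3 or Dark 3, 1 without Light 2, 2 without Dark 1, 3 without Light 1 and 7 without Dark 2. It was 1 with no filter on low values, 7 with equal FPKM totals and 8 with the replicate number as a block. With that block, and without Dark 1 or Dark 2, 1 gene of the list was called higher. With the length and GC trend removed Zfp445 (-0.42, adjusted p = 0.0689) and Tet3 (-0.22, adjusted p = 0.0709) were not called and Smchd1 was at -0.32 (adjusted p = 0.0204). Without Light 2 and Dark 1 Suz12 was at -0.53 (adjusted p = 0.133), and Ctcf lost its call with median centring (0.0778).

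Receptors and adaptors that work with Grb10, itself near 0 in these libraries, split in direction: of 11 tested 2 rose and 4 fell. That is 54.5% called, beside 35.6% of all genes tested, with a median of -0.09 beside -0.01. Irs2, an insulin receptor substrate, rose to 4.96 ± 0.225 FPKM in Light, against 2.95 ± 0.0911 FPKM in Dark (log2 change 0.59 ± 0.08, adjusted p = 0.00361). Grb14, an adaptor of the same family as Grb10, fell to 2.58 ± 0.337 FPKM in Light, against 5.42 ± 0.475 FPKM in Dark (-0.84 ± 0.11, adjusted p = 0.00264). The ubiquitin ligase genes Nedd4 and Nedd4l went in opposite directions, Nedd4 by -0.56 ± 0.12 (adjusted p = 0.0146) and Nedd4l by 1.07 ± 0.26 (adjusted p = 0.0215). Igf1r fell by 0.40 (adjusted p = 0.0215) and Irs1 by 0.39 (adjusted p = 0.0362), and Insr, at -0.17, was not called (adjusted p = 0.167). Nedd4 and Nedd4l lost their calls without Light 2, Light 3 or Dark 3 (0.0539 to 0.0841), and Igf1r and Irs1 without those or Dark 1 (0.0570 to 0.124). With the length and GC trend removed Igf1r was at -0.08 (adjusted p = 0.355), Irs1 at -0.15 (adjusted p = 0.244) and Nedd4 at -0.36 (adjusted p = 0.00769), and quantile normalization ended the calls of Igf1r (0.0799) and Irs1 (0.0767).

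Dlk1, which was listed at 0 in all 6 libraries, interacts with the Notch pathway. In that pathway 6 of 8 tested genes fell and 0 rose (75.0% called, beside 35.6% of all genes tested, and median -0.43 beside -0.01). Of the receptors, 3 passed the filter and fell: Notch2 to 11.8 FPKM in Light, against 16.5 FPKM in Dark (adjusted p = 0.00635), Notch3 to 7.08 FPKM in Light, against 10.1 FPKM in Dark (adjusted p = 0.00714), and Notch1 by 0.28 (adjusted p = 0.0420). The ligand gene Jag1 fell by 0.58 (adjusted p = 0.0141), and the target genes Hey1 by 0.67 (adjusted p = 0.00581) and Hes1 by 0.40 (adjusted p = 0.0429). Hey1 averaged 0.617 FPKM in Light and 1.57 FPKM in Dark, so it passed the filter only through its Dark values. Below the filter, the target gene Nrarp stood wholly higher, with 1.05 FPKM in Light and 0.621 FPKM in Dark, and the receptor gene Notch4 had 0.163 FPKM in Light and 0.164 FPKM in Dark. Dlk2, the relative of Dlk1, had 5.95 FPKM in Light and 5.94 FPKM in Dark (adjusted p = 0.955), and the ligand gene Jag2 was not called either. Notch2 and Notch3 kept their calls whichever library was left out, though Notch2 was at -0.22 with the length and GC trend removed (adjusted p = 0.0378). Hey1 kept its call too, with the filter always taken over all 6 libraries. Jag1 lost its call without Light 2, Light 3 or Dark 3 (0.0508 to 0.0585), Hes1 without any library but Dark 2 (0.0604 to 0.138), and Notch1 without any 1 of the 6 (0.0637 to 0.120), and Notch1 was at -0.09 with that trend removed (0.316). Quantile normalization ended the calls of Hes1 (0.224) and Notch1 (0.472), and median centring both too (0.0628 and 0.0857).

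Partners of Sgce, the sarcoglycan and dystroglycan complex, gave 1 increase and 3 decreases among 9 tested genes (44.4% called, beside 35.6% of all genes tested, and median -0.10 beside -0.01). Sntb2, a syntrophin, fell to 10.8 ± 1.50 FPKM in Light, against 18.7 ± 1.87 FPKM in Dark (-0.74 ± 0.11, adjusted p = 0.00507), and kept its call in all 16 settings, at -0.36 with the length and GC trend removed. Dag1, the dystroglycan gene, fell by 0.26 (adjusted p = 0.0297), Utrn fell as given above, and Dtna, the dystrobrevin gene, rose by 0.27 (adjusted p = 0.0498). Dtna lost its call in 10 of 15 settings and Dag1 in 7 of 16, both without Light 1, Light 2, Light 3 or Dark 3 (0.0668 to 0.131), and Dtna also without Dark 1 (0.104) or Dark 2 (0.0729). The sarcoglycan genes Sgcb (-0.10, adjusted p = 0.464) and Sgcd (0.01, adjusted p = 0.954) were not called.

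Among other genes that descend from retrotransposon gag sequences, 5 passed the filter and 1 fell (20.0% called, beside 35.6% of all genes tested, and median -0.04 beside -0.01). Rtl10 fell to 6.02 ± 0.874 FPKM in Light, against 9.13 ± 1.04 FPKM in Dark (-0.53 ± 0.12, adjusted p = 0.0174), and was not called without Light 2 (0.0677) or Light 3 (0.0700). Rtl8b had 23.5 ± 8.77 FPKM in Light and 23.2 ± 0.855 FPKM in Dark (adjusted p = 0.896), and Rtl8a had a log2 change of -0.19 (adjusted p = 0.606). Both are uncertain, since they are near-identical copies. 

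**Figure D4:**
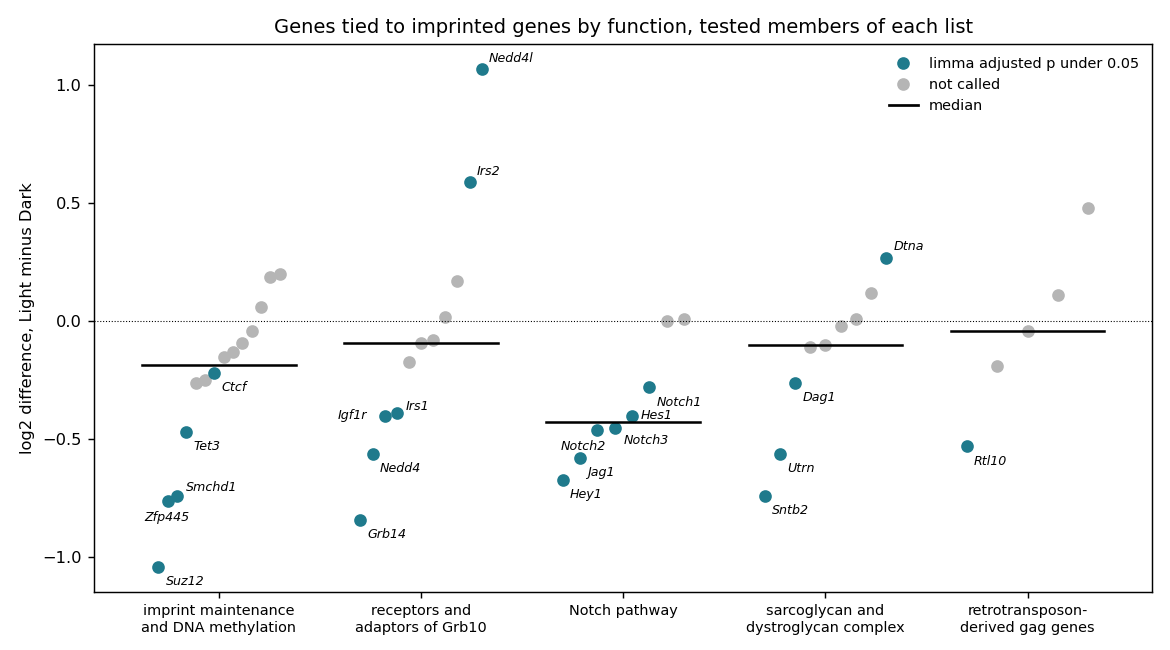
Log2 change, Light minus Dark, of each tested gene in the lists around the members, with the median of each list. In the Notch list the median is -0.43 and no gene rose, and the other medians lie between -0.19 and -0.04.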

How the data were processed

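Libraries of 661W messenger RNA, 3 of Light and 3 of Dark, were grouped by title. The submitters' processing notes name HISAT2 and the mm10 build. Which program made the FPKM, its annotation and strand setting, and the read depth: not given in the sources used here. Per the file headers, the authors deposited gene-level FPKM, in a series table equal to the 6 sample tables. Over 1407 low genes no ratio between libraries was common to more than 0.5% of them, so whole reads could not be recovered. Coordinates, length and GC content came from GENCODE M21 (22022 of 22036 Ensembl identifiers matched), for the longest annotated transcript.

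Genes averaging 1 FPKM or more (11068) were tested on log2(FPKM + 1) by limma 3.58.1 in R 4.3.3 (eBayes, trend and robust, 2-sided, group only), with Benjamini-Hochberg adjustment and a threshold of 0.05. The procedure was tested on simulated data. The members and lists were chosen with earlier results of these data known, so members were not tested and lists were described by counts and medians without a set test. Named genes were the members, the called genes and the 3 most abundant uncalled genes among other imprinted genes, up to 4 called genes with the largest change per other list, genes within 250 kb of a member that passed the filter, the 5 genes most correlated with Peg10, and defining markers. Genes named beyond this (Ctcf, Dnmt1, Uhrf1, Trim28, Zfp57, Igf1r, Irs1, Insr, Notch1, Hes1, Dlk2, Jag2, Sgcb, Sgcd, Rtl8a, Rtl8b, Nrarp, Notch4, Dnmt3l, Tet1, Tet2, Nap1l5, Slc22a18, Slc38a4, Rtl1) were picked after their values were seen. Alternatives were no filter, a mean of at least 5 FPKM, a pseudocount of 0.1, quantile normalization, median centring, equal FPKM totals, a loess trend (span 0.5) on length and GC content removed, the replicate number as a block, and each library left out in turn. The fit without Light 2 and Dark 1 was added after the data were seen.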

Additional observations from a re-analysis of the deposited data

How the results depend on the processing

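The Peg10 difference, for which Peg10 was chosen, ran from -1.98 to -1.61 under the 13 alternatives. The block on replicate number returns the same -1.84 by design. Leaving out libraries cannot reverse groups that lie wholly apart. Of 3938 genes called (2128 higher, 1810 lower), 2606 (1109 lower) were called with no filter on low values, and with equal FPKM totals 1212 were higher and 2902 lower. Without Light 2 and Dark 1 the counts were 1427, 785 and 642. Leaving out 1 library at a time gave 1228 to 5874 called, 693 to 2990 higher and 533 to 2884 lower. Among other imprinted genes 3 were higher, which became 1 with no filter, 0 with equal FPKM totals, 0 without Light 2 and Dark 1, and 0 to 5 with 1 library left out. The 3 lower became 1 with no filter, 1 at a mean of at least 5 FPKM, 5 with quantile normalization, 5 with equal FPKM totals, 6 with the length and GC trend removed, 1 without Light 2 and Dark 1, and 1 to 3 with 1 library left out. The causes were not tested. Of the 45 named genes that are no members, 0 reversed as a call, and 19, 20 and 19 changed sides to not called without Light 2, Light 3 and Dark 3. A mean of at least 5 FPKM left Plagl1 and the lower members without a value, and the length and GC trend was not removed for members below 1 FPKM.

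The replicate numbers are shared between the groups, but same-numbered libraries deviated together for numbers 1 and 2 (correlations 0.69 and 0.64) and not for number 3 (-0.09), so they were not treated as pairs. With the number as a block, 6690 genes were called, 3287 higher and 3403 lower, and Cep41 (adjusted p = 0.0259), Tmem209 (0.0185) and Sf3b5 (0.00163) gained a call. No other of the 45 named genes counted above changed its call. The depth is unknown, so how far it limits values near 0, such as those of Mest and Grb10, cannot be given.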
